A study of Rattus norvegicus with 11 samples.

Results

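The hypoxia and glycolysis genes described here are Hif1a, Egln3, Vegfa, Adm, Slc2a1, Hk2, Pfkfb3, Pgk1, Ldha and Bnip3. They were chosen by symbol, and all 10 were found among the 24481 genes with read counts in the rat ileum, each with an FPKM value (fragments scaled to transcript length and library size) in all 11 libraries. Each library was taken as coming from 1 SD rat, described as male, of 6 to 8 weeks. The groups are given as 3 control rats, 4 rats with severe acute pancreatitis (SAP) and 4 SAP rats treated with JZL184. SAP was induced with 3% sodium taurocholate, which was infused backwards into the pancreatic duct. At 24 h after surgery the JZL184 group was injected with 10 mg/kg JZL184, an inhibitor of monoacylglycerol lipase (MAGL), the enzyme that degrades the endocannabinoid 2-AG. The control and SAP groups were given vehicle at that time, and all rats were killed 24 h later. Which surgery the control rats had, if any, is not given in the labels or methods. No group received JZL184 without SAP, so JZL184 can be compared only among rats with SAP. The sample labels give a control plasmid for the control rats and oil in the titles of the SAP rats, where the treatment text gives vehicle. They also give intestinal epithelial cells, while the source is ileum tissue. Markers of smooth muscle, fibroblasts, macrophages and endothelium were present in each library, so the values are those of whole ileum. In such bulk samples, fewer cells of a type and less RNA per cell cannot be told apart.

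Cells sense oxygen through the hypoxia-inducible factors (HIFs). In the presence of oxygen, prolyl hydroxylases such as Egln3 mark the HIF alpha subunits for degradation by the Vhl complex. When oxygen is low, the alpha subunit, Hif1a or Epas1, pairs with Arnt and binds hypoxia response elements, whose core is ACGTG or GCGTG. Target genes of HIF include Egln3 itself, the secreted peptides Vegfa and Adm, the glucose transporter Slc2a1, enzymes of glycolysis and the mitophagy receptor Bnip3. Hif1a is regulated mainly through the stability of its protein, which RNA does not measure. The epithelium of the intestine lies next to a lumen almost free of oxygen and is known for low physiological oxygen, and HIF targets such as Tff3 and Nt5e are known to protect its barrier.

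The promoters of 4 members are shown: Pfkfb3 and Adm, the members called below, Slc2a1, which separated JZL184 from SAP, and Ldha, an abundant member that was not called. The window of Adm holds no ACGTG. Each is the 250 bases upstream of the RefSeq transcription start, on the + strand of GRCr8, and the capitals mark ACGTG on either strand.
Pfkfb3, chr17:71944683-71944932: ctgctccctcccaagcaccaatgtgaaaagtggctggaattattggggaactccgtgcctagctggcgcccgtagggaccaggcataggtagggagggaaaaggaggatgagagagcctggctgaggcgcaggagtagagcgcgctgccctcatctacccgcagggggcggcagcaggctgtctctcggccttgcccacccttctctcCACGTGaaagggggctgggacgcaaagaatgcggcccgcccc
Slc2a1, chr5:138002272-138002521: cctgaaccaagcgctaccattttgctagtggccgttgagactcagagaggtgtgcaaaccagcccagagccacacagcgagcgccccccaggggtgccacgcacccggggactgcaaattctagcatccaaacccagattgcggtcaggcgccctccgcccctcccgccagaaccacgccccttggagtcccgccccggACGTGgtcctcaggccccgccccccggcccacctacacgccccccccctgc
Ldha, chr1:106507842-106508091: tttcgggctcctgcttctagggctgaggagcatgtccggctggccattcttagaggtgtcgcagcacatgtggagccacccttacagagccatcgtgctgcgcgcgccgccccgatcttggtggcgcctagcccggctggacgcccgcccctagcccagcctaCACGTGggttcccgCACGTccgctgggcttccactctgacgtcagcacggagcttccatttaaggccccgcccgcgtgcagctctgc
Adm, chr1:174179950-174180199: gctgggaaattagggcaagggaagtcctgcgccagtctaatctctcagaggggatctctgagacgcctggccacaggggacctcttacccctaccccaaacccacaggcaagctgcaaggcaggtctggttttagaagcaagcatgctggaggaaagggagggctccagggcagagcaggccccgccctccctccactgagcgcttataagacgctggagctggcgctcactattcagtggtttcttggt
The first core in the Pfkfb3 window began 42 bases before the start, and the core of Slc2a1 began 51 bases before it. In Pfkfb3 and at 1 of the 2 places in Ldha, the core lay in CACGTG, which reads the same on both strands and is also the E-box. RefSeq windows were given for 9 of the 10 members, and Pgk1 had none. ACGTG was found in 5 of the 9, namely Ldha, Bnip3, Slc2a1, Hif1a and Pfkfb3, beside 16.6% of 33469 windows of the same length. GCGTG was found in 3 of the 9, beside 25.9% of windows. Both motifs were searched on both strands, and a match is a description of these bases only. The reads were aligned to mRatBN7.2, another build, and promoters were matched by symbol.

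Between 26341299 and 33847135 reads per library lay on genes, and each member had between 98 and 40080 reads in each library. Control libraries 1 and 2 differed by a chi-square per gene of 2.81, against 77.5 to 563 for the remaining pairs within groups. Whether control libraries 1 and 2 came from different rats was not tested. These libraries were counted as 1 sample, which left n = 2 in the control group. SAP libraries 1 and 2 stood apart from SAP libraries 3 and 4, with a chi-square per gene between 337 and 563 across these pairs, 85.5 between 1 and 2, and 99.1 between 3 and 4. SAP library 2 also held 7826 reads on the listed Xist transcript, which marks female cells, and each other library held at most 56. Fabp6, a bile acid carrier that marks the ileum, lay between 20506 and 21819 FPKM in the control libraries, at 410 in JZL184 library 1 and at 79.9 in JZL184 library 3. Fold changes that changed most without these libraries are also given without them. Genes were compared with the quasi-likelihood test of edgeR. A call required a fold change above 2 or below 0.5 and a p below 0.05 after Benjamini-Hochberg adjustment over all genes tested.

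Compared with the control group, no member was called in the SAP group, and the libraries of the SAP group differed strongly among themselves. Compared with the control group, 2 members were called in the JZL184 group, where edgeR called 2.16% of 15916 genes in either direction. Adm, a vasodilator peptide, was 6.97-fold higher and Pfkfb3, which drives glycolytic flux, was 4.51-fold higher. Both calls were lost in edgeR when some single libraries were left out, as given below. Slc2a1, the glucose transporter GLUT1, and Pfkfb3 were higher in each JZL184 library than in each SAP library, by 5.11-fold and 2.86-fold, without passing the threshold of edgeR. Pgk1 and Ldha, the most abundant members by FPKM, were called in no comparison.

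**Figure D1:**
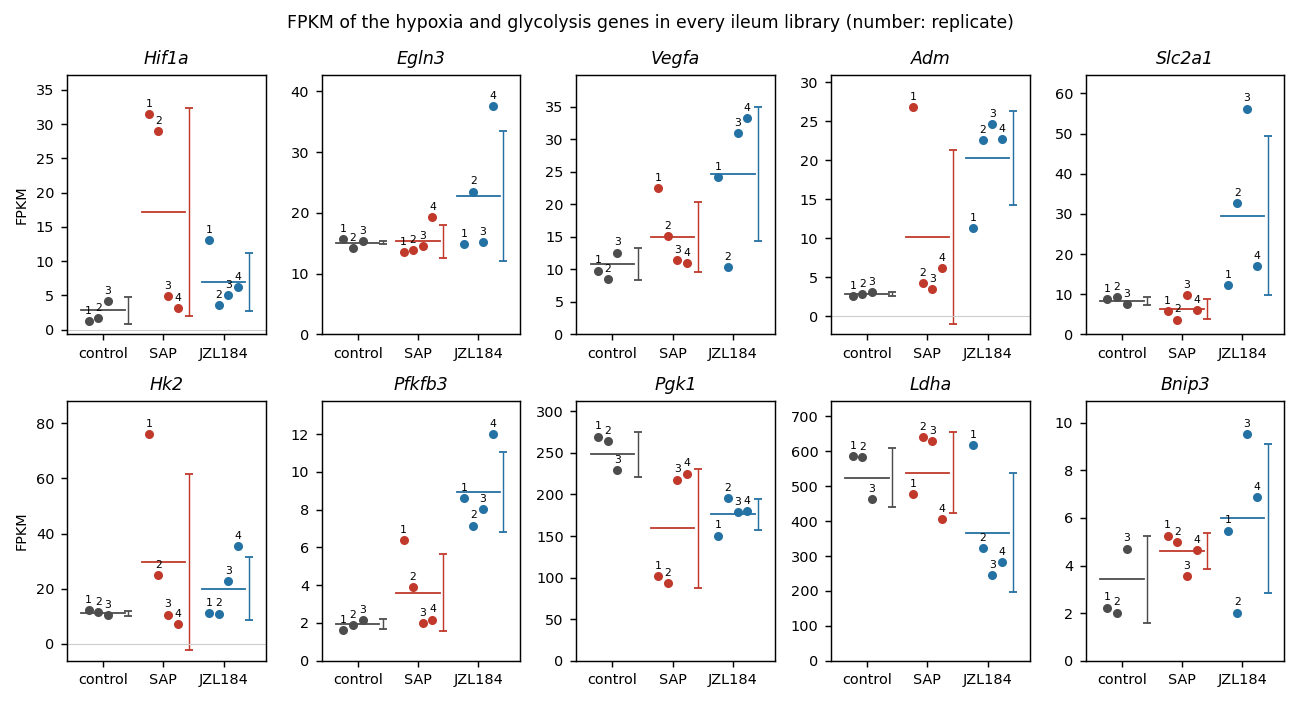
FPKM (vertical axis, linear) of the 10 genes in each library, with the replicate number beside each point, the group mean as a line and the SD as a bar (control n = 2 after averaging libraries 1 and 2, SAP and JZL184 n = 4). SAP libraries 1 and 2 hold the high values of Hif1a, and all 4 JZL184 libraries lie above all SAP and control libraries for Slc2a1 and Pfkfb3.

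Hif1a, the oxygen-regulated alpha subunit of HIF-1 on chromosome 6, was at 1.25, 1.63 and 4.21 FPKM in control libraries 1 to 3. It was at 31.5, 28.9, 4.86 and 3.16 FPKM in SAP libraries 1 to 4. In the JZL184 libraries it was at 13.04, 3.55, 5.00 and 6.22 FPKM. SAP libraries 1 and 2 were thus far above every other library, JZL184 library 1 was next, and SAP library 4 lay inside the control range. The log2 fold change was 2.39 ± 1.02 (SE) in SAP versus control, with an adjusted p of 0.459 by edgeR and an unadjusted p of 0.0473, the only one of the members below 0.05 in that comparison. Without SAP libraries 1 and 2 it was 0.46, with an adjusted p of 0.929. Hif1a was called only by DESeq2 with all 3 control libraries as separate samples, in SAP (adjusted p = 0.0113) and in JZL184 (adjusted p = 0.0129) compared with control, where these fits called 8.46% and 19.4% of all genes. In JZL184 versus SAP the log2 fold change was -1.09 ± 0.67 (adjusted p = 0.355, edgeR), and it was 0.82 without SAP libraries 1 and 2. Relative to the control group, JZL184 gave 1.26 ± 0.57 (adjusted p = 0.199, edgeR), which ranged from 0.71 without the merged control libraries 1 and 2 to 2.13 without control library 3.

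Egln3, the prolyl hydroxylase PHD3, hydroxylates HIF alpha subunits. Its FPKM was 15.7, 14.2 and 15.3 in the control libraries and 13.6, 13.9, 14.6 and 19.3 in the SAP libraries. In the JZL184 libraries it was 14.8, 23.5, 15.2 and 37.6. JZL184 libraries 2 and 4 were above all others, while libraries 1 and 3 lay within the control range. The log2 fold changes were -0.13 ± 0.31 in SAP versus control, 0.74 ± 0.37 in JZL184 versus SAP and 0.58 ± 0.45 in JZL184 versus control, with adjusted p of 0.831, 0.271 and 0.435 by edgeR. With JZL184 libraries 1 and 3, which have little Fabp6, left out, Egln3 was called versus control at a log2 fold change of 1.07 (adjusted p = 0.0328, edgeR), with 2 libraries left in the JZL184 group. That fit called 19.4% of all genes.

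Vegfa, the growth factor of blood vessels, had FPKM values of 9.80, 8.45 and 12.6 in the control libraries. They were 22.6, 15.1, 11.4 and 11.0 in the SAP libraries, and 24.2, 10.4, 31.0 and 33.3 in the JZL184 libraries. In all, 3 of the 4 JZL184 libraries were above all SAP libraries, and JZL184 library 2 lay among the control libraries. The log2 fold change was 0.29 ± 0.34 in SAP versus control (adjusted p = 0.661, edgeR) and 0.88 ± 0.35 in JZL184 versus SAP (adjusted p = 0.196). The JZL184 value relative to control was 1.14 ± 0.43 with an adjusted p of 0.147 by edgeR, and Vegfa was called there only in the fits with all 3 control libraries as separate samples (adjusted p = 0.0368 by edgeR and 0.0103 by DESeq2).

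Adm, the precursor of the vasodilator adrenomedullin on chromosome 1, was at 2.58, 2.80 and 3.06 FPKM in the control libraries. The SAP libraries had 26.8, 4.27, 3.52 and 6.16 FPKM, and the JZL184 libraries had 11.3, 22.6, 24.6 and 22.7. All SAP and JZL184 libraries were above all control libraries, and SAP library 1 was the highest of the 11. Its mean in the JZL184 group was 20.3 ± 6.07 (SD, n = 4) against 2.88 ± 0.26 (n = 2) in the control group, and the log2 fold change was 2.80 ± 0.43 (SE; adjusted p = 0.0239, edgeR). DESeq2 gave an adjusted p of 1.11e-07 and limma-voom one of 0.00322. In edgeR this call was lost without control library 3 (adjusted p = 0.178), without the merged control libraries 1 and 2 (0.407), without JZL184 library 2 (0.0662) and without JZL184 library 4 (0.0630), while the log2 fold change stayed between 2.69 and 3.02. The edgeR fit of all 3 groups did not call Adm in JZL184 versus control either, where it called 369 of 16570 genes. In SAP versus control the log2 fold change of Adm was 1.62 ± 0.86 (adjusted p = 0.459, edgeR), and it was 0.58 without SAP library 1. For JZL184 versus SAP it was 1.22 ± 0.61 (adjusted p = 0.268, edgeR) and 2.26 without SAP library 1 (adjusted p = 0.142).

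Slc2a1 on chromosome 5 encodes GLUT1, the transporter that brings glucose from the blood into cells. Its FPKM was 8.86, 9.36 and 7.54 in the control libraries, 5.84, 3.69, 9.83 and 6.14 in the SAP libraries, and 12.3, 32.7, 56.2 and 16.9 in the JZL184 libraries. The JZL184 libraries did not overlap with either of the other groups, but they spread widely among themselves. In JZL184 versus SAP the log2 fold change was 2.35 ± 0.52 with an adjusted p of 0.0851 by edgeR, so it was not called, whereas DESeq2 (adjusted p = 6.31e-04) and limma-voom (adjusted p = 0.0472) called it. Without JZL184 library 1, edgeR called it too, at a log2 fold change of 2.62 and an adjusted p of 0.0307, and in the edgeR fit of all 3 groups its adjusted p was 0.0498, where these fits called 4.21% and 1.25% of all genes. With each other library left out in turn, the edgeR adjusted p was between 0.0757 (without SAP library 4) and 0.219 (without JZL184 library 2), and the log2 fold change was lowest, at 1.92, without JZL184 library 3. Without JZL184 libraries 1 and 3 it was 2.22 (adjusted p = 0.0939, edgeR), and without SAP libraries 1 and 2 it was 1.94 (adjusted p = 0.209). Relative to the control group it was 1.78 ± 0.61 (adjusted p = 0.120, edgeR), with adjusted p of 0.0237 by DESeq2 and 0.0455 by limma-voom. There edgeR called it without JZL184 library 1 (2.05, adjusted p = 0.0371, beside 12% of all genes) and without JZL184 libraries 1 and 3 (1.65, adjusted p = 0.00947, beside the 19.4% given above). Between SAP and control it was -0.55 ± 0.43 (adjusted p = 0.529, edgeR), and the groups overlapped.

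Hk2, the hexokinase that traps glucose in the cell as glucose 6-phosphate, was at 12.2, 11.4 and 10.4 FPKM in the control libraries. It was at 76.2, 24.8, 10.6 and 7.24 FPKM in the SAP libraries and at 11.3, 10.9, 22.6 and 35.4 in the JZL184 libraries. SAP library 1 was the highest, and in both groups 2 libraries were not above the control range. No comparison called it, with log2 fold changes of 1.19 ± 0.87 in SAP versus control, -0.33 ± 0.67 in JZL184 versus SAP and 0.81 ± 0.51 in JZL184 versus control (adjusted p of 0.508, 0.787 and 0.335, edgeR). The sign of the first became negative (-0.40) and that of the second positive (1.23) without SAP libraries 1 and 2.

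Pfkfb3 on chromosome 17 makes fructose 2,6-bisphosphate, the activator of phosphofructokinase. It was at 1.63, 1.88 and 2.14 FPKM in the control libraries and at 6.38, 3.89, 2.00 and 2.18 in the SAP libraries. In the JZL184 libraries it was at 8.62, 7.16, 8.04 and 12.0 FPKM, above every SAP and control library. The JZL184 group differed from the control group by a log2 fold change of 2.17 ± 0.33 (adjusted p = 0.0239, edgeR), and DESeq2 (2.36e-06) and limma-voom (0.00341) gave lower adjusted p. As for Adm, edgeR lost the call without control library 3 (adjusted p = 0.176), without the merged control libraries 1 and 2 (0.407), without JZL184 library 2 (0.0615) and without JZL184 library 4 (0.0507). For JZL184 versus SAP it was 1.51 ± 0.36 with an adjusted p of 0.0909 by edgeR, 0.00694 by DESeq2 and 0.0311 by limma-voom. Without SAP libraries 1 and 2 it was 2.15 (adjusted p = 0.171, edgeR). Between SAP and control it was 0.69 ± 0.48 (adjusted p = 0.497, edgeR), where SAP libraries 1 and 2 lay above the control libraries and 3 and 4 beside them. It was 0.04 without SAP libraries 1 and 2.

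Pgk1 and Ldha act later in glycolysis, Pgk1 in the first step that yields ATP and Ldha in the reduction of pyruvate to lactate. Pgk1, on the X chromosome, was at 270, 264 and 229 FPKM in the control libraries. It was at 102, 93.4, 218 and 225 in the SAP libraries and at 151, 196, 178 and 180 in the JZL184 libraries. Each JZL184 library and each SAP library was below each control library, and SAP libraries 1 and 2 were the lowest of all. On TMM-normalized counts, the scale of the test, the SAP and control libraries of Pgk1 overlapped. The log2 fold changes were -0.78 ± 0.48 in SAP versus control and -0.52 ± 0.29 in JZL184 versus control, with adjusted p of 0.470 and 0.284 by edgeR. Between JZL184 and SAP it was 0.27 ± 0.39 (adjusted p = 0.687, edgeR), and -0.27 without SAP libraries 1 and 2. Ldha was at 585, 583 and 464 FPKM in the control libraries, at 477, 641, 630 and 406 in the SAP libraries and at 618, 324, 246 and 282 in the JZL184 libraries. JZL184 libraries 2 to 4 were the lowest of the 11, and JZL184 library 1 lay above the control libraries. The log2 fold changes of Ldha were -0.15 ± 0.32, -0.40 ± 0.33 and -0.57 ± 0.40 in the 3 comparisons in the same order as for Hk2 (adjusted p of 0.815, 0.490 and 0.390, edgeR). A gene described as similar to Ldha held 3.12% as many reads as Ldha, and the authors used reads that aligned uniquely, so reads matching both copies may be absent from both counts.

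Bnip3, a mitochondrial receptor that marks mitochondria for removal, was the member with the fewest reads. It was at 2.23, 2.02 and 4.71 FPKM in the control libraries, 5.26, 4.99, 3.55 and 4.64 in the SAP libraries and 5.47, 2.02, 9.53 and 6.89 in the JZL184 libraries. All groups overlapped, and JZL184 library 2 was as low as the lowest control library. The log2 fold changes were 0.29 ± 0.38, 0.50 ± 0.39 and 0.76 ± 0.55, again in that order, with adjusted p of 0.703, 0.453 and 0.408 by edgeR.

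**Figure D2:**
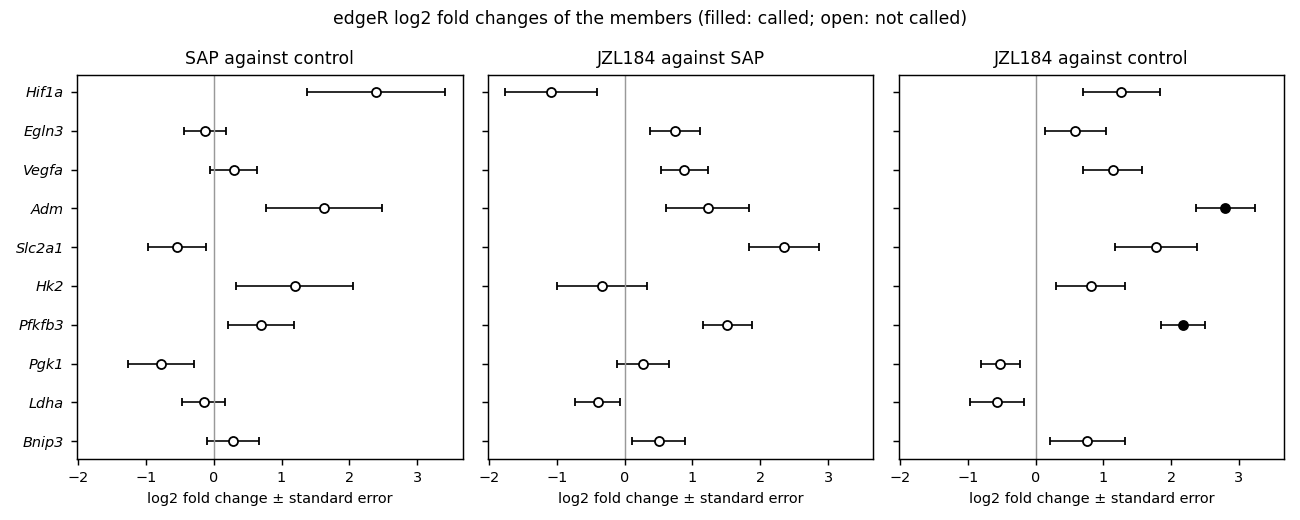
Log2 fold changes (horizontal axis) of the 10 genes with their standard errors from edgeR in the 3 comparisons, filled where called. Only Adm and Pfkfb3 in JZL184 versus control are filled, while Slc2a1 at 2.35 and Pfkfb3 at 1.51 in JZL184 versus SAP are open.

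In SAP versus control edgeR called 0 of the 10 members, where it called 0% of 16029 genes, DESeq2 called 0 of the 10 and 1.23% of all genes, and limma-voom called 0 of the 10 and 0.0873% of all genes. An unadjusted edgeR p below 0.05 was found for 1 member and for 9.09% of genes (1457). Adm alone was above the control libraries in every SAP library on TMM-normalized counts, beside 10.1% of genes higher and 13% lower without overlap. The median log2 fold change of the members was 0.29, against 0.06 over all genes tested.

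In JZL184 versus SAP edgeR again called 0 of the 10 members and 0% of 15308 genes. DESeq2 and limma-voom each called 2, Slc2a1 and Pfkfb3, beside 6.98% of all genes in DESeq2, which gave no p for Adm, and 4.57% in limma-voom. An unadjusted edgeR p below 0.05 was found for 3 members, Slc2a1, Pfkfb3 and Vegfa, and for 21.3% of genes (3267). Slc2a1 and Pfkfb3 were higher without overlap, beside 6.32% of genes higher and 5.41% lower. For both, the two-sided exact permutation test of the FPKM gave p = 0.0286, the smallest that 4 against 4 samples can give. These were the only 2 unadjusted p below 0.05 of 30 such tests, 10 genes in 3 comparisons, and against the control group with n = 2 no p below 0.0667 was possible. The median log2 fold change was 0.62, against -0.05 over all genes, and it was 0.996 without SAP libraries 1 and 2.

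In JZL184 versus control edgeR called 2 of the 10 members, both higher, where it called 2.16% of 15916 genes in either direction and 1.02% as higher. DESeq2 called 3, Adm, Pfkfb3 and Slc2a1, beside 10.8% of genes. Limma-voom called these 3 as well, beside 18.3% of genes. An unadjusted edgeR p below 0.05 was found for 4 members and for 26.3% of genes. Adm, Pfkfb3 and Slc2a1 were higher without overlap, beside 18.9% of genes, and Pgk1 was lower without overlap, beside 19.5%. With the 3 control libraries as separate samples edgeR called 4 members, Adm, Pfkfb3, Slc2a1 and Vegfa, but then also 18.1% of all genes, and DESeq2 added Hif1a to these at 19.4% of all genes. The median log2 fold change was 0.98, against 0.08 over all genes. The 2 comparisons with the control group share its samples, and both comparisons with the SAP group share the SAP samples.

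**Figure D3:**
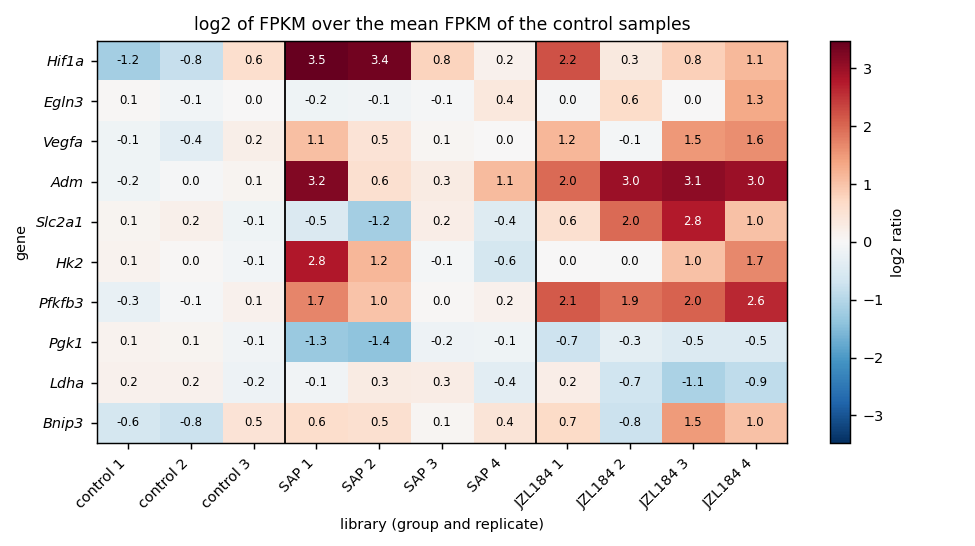
Log2 ratio of each library's FPKM to the mean FPKM of the control samples, with the 10 genes in rows, the 11 libraries in columns and the value printed in each cell. SAP library 1 and JZL184 libraries 3 and 4 hold the most members above 2 times the control mean (5, 6 and 8), while SAP libraries 3 and 4 hold 0 and 1. The share of all genes above that level was not counted.

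Not all members moved alike across the libraries, and how closely they moved together was not tested. Of the 10, 5 were above 2 times the control mean in SAP library 1, 2 in SAP library 2, 0 in SAP library 3 and 1 in SAP library 4. In the JZL184 libraries 4, 3, 6 and 8 were above it. Below 0.5 times the control mean were 1 in SAP library 1, 2 in SAP library 2, 1 in JZL184 library 3 and 1 in control library 1. The share of all genes above or below these levels was not counted. These counts therefore cannot tell the members from other genes of the same libraries. SAP library 1 was the highest of the 11 libraries for Hif1a, Adm and Hk2, JZL184 library 3 for Slc2a1 and Bnip3, and JZL184 library 4 for Egln3, Vegfa and Pfkfb3. SAP library 2 had Hif1a near the level of SAP library 1 but Slc2a1 at its lowest, 3.69 FPKM, and Adm at 4.27 FPKM. JZL184 library 3 had Slc2a1 at 56.2 FPKM with Hif1a at 5.00.

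Markers of other cells also differed between libraries. The summed FPKM of 9 epithelial markers lay between 44890 and 46420 in the control libraries, between 13510 and 29090 in the SAP libraries and between 8341 and 25010 in the JZL184 libraries, and that of 7 neutrophil markers between 1.12 and 2.54, between 8.41 and 80.5 and between 13.2 and 250.9. The epithelial markers did not differ alike. Fabp6, Krt20, Fabp2, Krt8 and Vil1 had lower means in both groups than in the control group, while the ratio of mean FPKM to control was 1.29 in SAP and 1.54 in JZL184 for Cdh1, 1.98 and 1.71 for Cdh17, 1.02 and 1.15 for Lgals4, and 0.805 and 0.870 for Epcam. Of the 7 neutrophil markers, Cxcr2 was at 0 in all control libraries, and S100a8 and S100a9 made up most of the sums in the SAP and JZL184 libraries. Mpo went the other way, with ratios of mean FPKM to control of 0.432 in SAP and 0.399 in JZL184, and was at or below 0.56 FPKM in all libraries. The sums of 7 erythrocyte markers were 133 to 341, 55.2 to 372 and 252 to 732. The 6 endothelial markers summed to 21.3 to 22.9, 26.3 to 32.5 and 26.6 to 36.2. Of these, Tie1 went the other way, with ratios of mean FPKM to control of 0.77 in SAP and 0.44 in JZL184. The other endothelial markers had higher means in both groups than in the control group. Neutrophil markers were highest in JZL184 library 2, at 250.9, and they were 8.41 in SAP library 4. The part of these cells in the members' values was not tested. With the low-Fabp6 JZL184 libraries 1 and 3 left out, a choice made after seeing the data, Adm and Pfkfb3 were still called versus control, at log2 fold changes of 3.04 and 2.35 (adjusted p = 1.17e-04 and 7.75e-04, edgeR), in the fit that called 19.4% of all genes.

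The members were set beside 6 lists of related genes, 93 of them tested, which are given as counts and medians. In SAP versus control and in JZL184 versus SAP, edgeR called 0 of the 93 and 0% of all genes. At an unadjusted edgeR p below 0.05, 12 were higher and 6 lower in the first, beside 9.09% of all genes in either direction. In the second, 17 were higher and 14 lower, beside 21.3%. DESeq2 called 5 and 14 in these comparisons, beside 1.23% and 6.98% of all genes. Limma-voom called 0 and 8, beside 0.0873% and 4.57%. In JZL184 versus control edgeR called 4, all higher, beside 1.02% of all genes called as higher and 2.16% in either direction. Of these 4, Epas1, Slc2a3 and Angptl4 are described here.

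**Figure D4:**
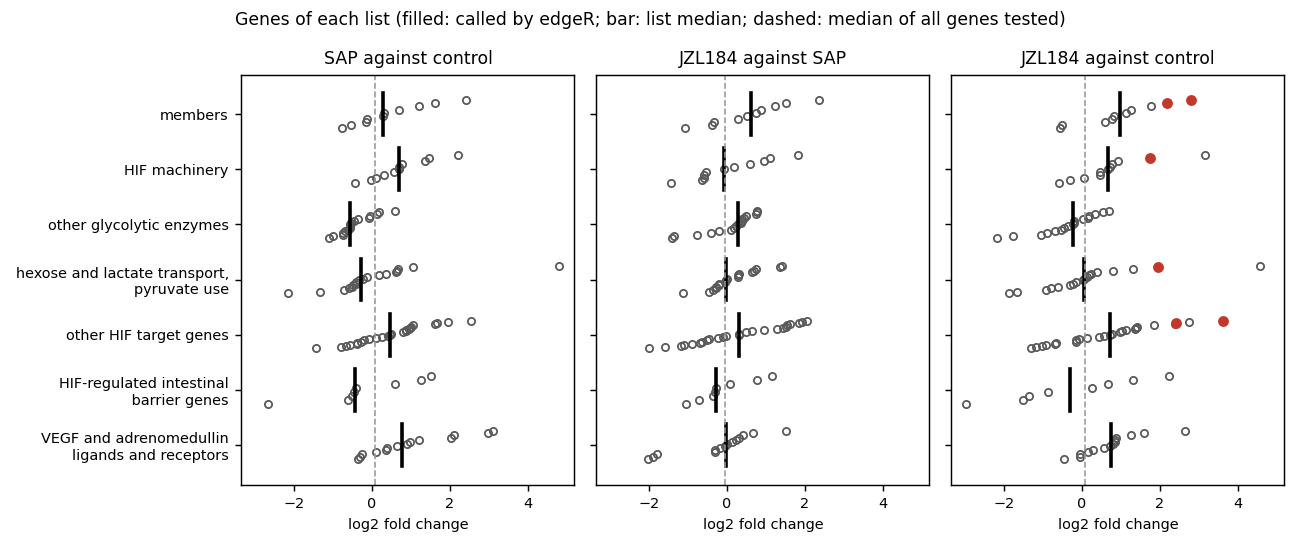
Log2 fold changes from edgeR (horizontal axis) of the members and of 6 lists of related genes, with called genes filled, the median of each list as a bar and that of all genes tested as a dashed line. The called genes are all in JZL184 versus control and all above 0, and the 17 other glycolytic enzymes have medians of -0.55, 0.27 and -0.22.

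The HIF machinery was represented by 11 genes, of which 1 was called higher in JZL184 versus control. Epas1, the alpha subunit HIF-2 alpha, was at 5.60, 5.80 and 6.22 FPKM in the control libraries, 13.5, 13.4, 9.87 and 6.75 in the SAP libraries and 13.9, 18.4, 28.4 and 21.4 in the JZL184 libraries. Its JZL184 libraries lay above all others, and its log2 fold change versus control was 1.75 ± 0.35 (adjusted p = 0.0468, edgeR). Hif3a, an alpha subunit that can restrain HIF, was low at 0.10 to 0.14 FPKM in the control libraries and 0.25 to 1.65 in the JZL184 libraries, with a log2 fold change of 3.15 ± 0.79 (adjusted p = 0.0694, edgeR). Arnt, the common partner, was at 10.2 and 11.9 FPKM in SAP libraries 1 and 2 and at 3.31 and 2.34 in SAP libraries 3 and 4, against 1.93 to 2.38 in the control libraries. Like Hif1a, it was thus high in SAP libraries 1 and 2 (log2 fold change 1.45 ± 0.65, adjusted p = 0.459, edgeR). These libraries also stood apart from SAP libraries 3 and 4 over all genes, as given above, so the pattern is not particular to Hif1a and Arnt. The medians of the list were 0.68, -0.08 and 0.66 in SAP versus control, JZL184 versus SAP and JZL184 versus control.

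None of the 17 other glycolytic enzymes was called by edgeR in any comparison. In SAP versus control, 14 of 17 had a negative log2 fold change, beside 7496 of all 16029 genes tested. Pkm, which makes pyruvate, was at 239, 235 and 158 FPKM in the control libraries. It was between 73.8 and 156 in the SAP libraries and between 91.45 and 147 in the JZL184 libraries. In SAP versus control its log2 fold change was -1.11 ± 0.42 (adjusted p = 0.459, edgeR). Aldoa, the aldolase of most tissues, had -1.001 ± 0.38 there (adjusted p = 0.459, edgeR). In JZL184 versus control, Pfkm, the muscle form of phosphofructokinase, was at 1.48, 0.30, 1.11 and 0.64 FPKM against 4.69, 4.38 and 2.94, a log2 fold change of -2.17 ± 0.51 (adjusted p = 0.0631, edgeR). Tpi1 had -1.05 ± 0.34 there (adjusted p = 0.112, edgeR). Pfkl, the liver form, had 0.76 ± 0.32 in JZL184 versus SAP (adjusted p = 0.210, edgeR). The 7 smooth muscle markers summed to 1913 to 2122 FPKM in the control libraries. They summed to 824 to 2067 in the SAP libraries and 374 to 2134 in the JZL184 libraries. In SAP the ratio of mean FPKM to control was 1.31 for Myh11 and 1.01 for Cnn1. The other smooth muscle markers had ratios from 0.469 (Actg2) to 0.835 (Acta2) there. The part of smooth muscle in the values of these enzymes was not tested.

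Of 18 genes of hexose and lactate transport and pyruvate use, 1 was called. Slc2a3, the high-affinity glucose transporter GLUT3, was at 0.64, 0.69 and 0.91 FPKM in the control libraries, 0.98 to 1.65 in the SAP libraries and 2.44 to 3.86 in the JZL184 libraries. It rose in JZL184 versus control by a log2 fold change of 1.95 ± 0.34 (adjusted p = 0.0357, edgeR). Slc16a3, the lactate exporter MCT4 and itself a HIF target, was below each control library in each SAP library, at 20.4, 22.1 and 13.6 FPKM in the control libraries and 2.59, 3.10, 5.66 and 6.13 in the SAP libraries (log2 fold change -2.15 ± 0.47, adjusted p = 0.417 by edgeR and 0.0101 by DESeq2). The JZL184 libraries, at 10.1, 5.99, 1.59 and 2.05 FPKM, were also below each control library. Pdk4, which closes the entry of pyruvate into the mitochondrial cycle, was at 0.05, 0.05 and 0.04 FPKM in the control libraries, 1.11, 4.82, 0.19 and 0.23 in the SAP libraries and 2.18, 0.33, 0.65 and 1.62 in the JZL184 libraries. Each control library held 2 reads of Pdk4, so no fold change is given (adjusted p versus control of 0.459 in SAP and 0.0526 in JZL184, edgeR). Pfkfb1, a separate gene of the same enzyme family as Pfkfb3, was at or below 0.12 FPKM in all libraries.

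Of 25 other HIF target genes that could be tested, 2 were called in JZL184 versus control, and 1 of them is described here. Angptl4, a lipoprotein lipase inhibitor, was at 0.79, 0.81 and 0.78 FPKM in the control libraries, 3.27, 4.72, 4.27 and 1.70 in the SAP libraries and 5.00, 4.83, 3.91 and 3.36 in the JZL184 libraries. It was called in JZL184 versus control at 2.40 ± 0.36 (adjusted p = 0.0232, edgeR), and in SAP versus control it had 1.95 ± 0.45 (adjusted p = 0.449, edgeR; 0.00748, DESeq2). Ddit4, a stress-induced inhibitor of mTOR, had 1.62 ± 0.35 in JZL184 versus SAP (adjusted p = 0.0851, edgeR). Epas1, Slc2a3 and Angptl4 lost the call without control library 3, without the merged control libraries 1 and 2 or without JZL184 library 2 in edgeR, with adjusted p up to 0.529 for Epas1, 0.5003 for Slc2a3 and 0.354 for Angptl4.

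Of 8 barrier genes known as HIF targets in the intestine, none was called by edgeR. Ckm, a creatine kinase, was at 5.30, 5.03 and 4.67 FPKM in the control libraries and at 0.62, 0.04, 1.11 and 1.60 in the SAP libraries, and its log2 fold changes versus control were -2.66 ± 0.92 in SAP and -2.96 ± 0.69 in JZL184 (adjusted p = 0.459 and 0.0631, edgeR). Nt5e, which makes adenosine outside the cell, was at 1.69, 1.83, 2.21 and 3.45 FPKM in the JZL184 libraries and at 5.05, 5.15 and 7.78 in the control libraries (-1.51 ± 0.37, adjusted p = 0.0656, edgeR). The drug exporters Abcb1b and Abcb1a had 1.25 ± 0.53 in SAP versus control and 1.15 ± 0.47 in JZL184 versus SAP (adjusted p = 0.459 and 0.202, edgeR).

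Of 14 ligands and receptors of the VEGF and adrenomedullin systems, none was called by edgeR. Ramp3, which with Calcrl forms a receptor of adrenomedullin, was at 4.13, 3.83 and 4.89 FPKM in the control libraries, 4.50, 4.14, 5.80 and 6.59 in the SAP libraries and 4.67, 16.3, 18.9 and 13.9 in the JZL184 libraries, where library 1 alone stayed at the control level. Its log2 fold change in JZL184 versus SAP was 1.51 ± 0.45 (adjusted p = 0.127, edgeR). Calcrl itself had -2.02 ± 0.65 there (adjusted p = 0.145, edgeR), with SAP libraries 1 and 2 at 4.34 and 5.65 FPKM and all other libraries at or below 1.08. Of the VEGF co-receptors, Nrp1 was also highest in SAP libraries 1 and 2, at 2.15 and 5.13 FPKM against 0.13 to 0.27 in the control libraries, and it had a log2 fold change of 1.27 ± 0.46 in JZL184 versus control (adjusted p = 0.136, edgeR). Nrp2 had 1.20 ± 0.46 in SAP versus control (adjusted p = 0.459, edgeR). Vegfd was at or below 0.37 FPKM in all libraries, and with 0, 1 and 4 reads in the control libraries no fold change is given.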

How the data were processed

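Stranded mRNA libraries are described as made from the ileum of 11 rats (3 control, 4 SAP, 4 JZL184). After trimming, the authors aligned reads with HISAT2 to rat build mRatBN7.2, and the raw count of reads per gene was deposited. FPKM values, scaled by the authors for gene length and library size, were deposited to 2 decimals. Which tool and annotation gave the counts is not given in the sources used here. Counts were compared in pairs of groups with edgeR 4.0.16 (quasi-likelihood test, TMM, filterByExpr with a minimum count of 10) in R 4.3.3, with control libraries 1 and 2 summed. Alternatives were DESeq2 1.42.0, DESeq2's size factors in edgeR, limma 3.58.1 (voom with quality weights), no filter, all 3 groups in 1 fit, separate control libraries, the replicate number as a block, gene length offsets (loess span 0.3), the block with these offsets, no fold threshold, and leaving out libraries. FPKM were compared with two-sided exact permutation tests, and log2 of FPKM + 1 was an alternative. Depth was 26341299 to 33847135 reads per library. The labels do not say whether rats shared a cage or a day, and the p-values measure the spread between these samples. Promoters came from RefSeq (GRCr8). The members and lists were chosen with earlier results of these data known. All 10 members are named, and from each list the 2 genes with the smallest p per comparison and the called genes. The values of 1 such gene are not reported here. Cell type markers and Xist are named as checks. Ero1l and Figf, older symbols of the listed Ero1a and Vegfd, gave no further gene, and Car9, Car12, Epo and the marker Pnlip were not analysed here. Tables and plots were made with Python 3.11.15, pandas 2.3.3, numpy 2.4.6 and matplotlib 3.10.9.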

Additional observations from a re-analysis of the deposited data

Results flagged for a closer look

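In each group of 4 libraries, the highest and lowest FPKM of the members and named genes were compared with the nearest of the others by Dixon's test. Of 68 groups, 5 passed, where chance gives about 1 in 20. Adm was at 26.8 FPKM in SAP library 1, with the other SAP libraries between 3.52 and 6.16. Adm was at 11.32 FPKM in JZL184 library 1, below the 22.57 to 24.63 of the other JZL184 libraries. Ckm was at 1.72 FPKM in JZL184 library 3, with the others between 0.25 and 0.35. Nrp2 was at 2.56 FPKM in JZL184 library 3, with the others between 1.24 and 1.46. Pfkfb1 was at 0.12 FPKM in SAP library 3, with the others at 0.06 to 0.07. SAP library 1 and JZL184 library 3 are among the libraries that stood apart in other genes, and the cause was not tested.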

How the results depend on the processing

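Of the members' fold changes under the alternatives, 479 kept their direction and side of the threshold, 17 came past it, 9 no longer passed and 14 changed sign, and the cause was not tested in any of them. In SAP versus control the number of members called (0 with edgeR) was 1 with DESeq2 and separate control libraries, and the related genes called (0) were 5 with DESeq2 and 18 with DESeq2 and separate control libraries. DESeq2 called 1.23% of all genes there, and 8.46% with separate control libraries. In JZL184 versus SAP the members called (0) were 2 with DESeq2, 2 with limma-voom and 1 with all 3 groups in 1 fit, and the related genes (0) were 14, 8 and 4, and 1 with gene length offsets. Over all genes the shares called were 6.98%, 4.57% and 1.25%, and the fit with length offsets called 37 of 15308 genes. In JZL184 versus control the members called (2) were 1 with all 3 groups in 1 fit, which kept Pfkfb3, 4 with separate control libraries in edgeR, 5 with these in DESeq2 and 4 without JZL184 libraries 1 and 3, and the last 2 of these fits called 19.4% of all genes each. The related genes called there (4) were 16 with DESeq2, 27 with limma-voom, 12 without the filter, 24 and 32 with separate control libraries in edgeR and DESeq2, and 30 without JZL184 libraries 1 and 3. Of all genes, 10.8% were called with DESeq2, 18.3% with limma-voom and 929 of 23630 without the filter. The fit of all 3 groups called 369 of 16570 genes. With separate control libraries the shares were 18.1% in edgeR and 19.4% in DESeq2, and without JZL184 libraries 1 and 3 the share was 19.4%. Of the exact permutation tests in JZL184 versus control, 2 passed with separate control libraries (0 otherwise, since none could).

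Leaving out 1 library at a time gave 0 to 0, 0 to 1 and 0 to 3 members called and 0 to 0, 0 to 8 and 0 to 19 related genes in SAP versus control, JZL184 versus SAP and JZL184 versus control. Over all genes, these fits called at most 3 of 15881, 655 of 15540 and 1867 of 15623 genes, in the same order of comparisons. The medians of the members were 0.12 to 0.62, 0.39 to 0.76 and 0.80 to 1.33. The lone control sample that remains in some of these is assumed to vary like the JZL184 or SAP libraries. Without control libraries 1 and 2, 0 members and 0 related genes were called in JZL184 versus control, and Ldha (0.10) and Bnip3 (-0.14) changed sign in SAP versus control, as did Ldha with length offsets (0.0186). Without SAP libraries 1 and 2, Egln3 (0.11), Vegfa (-0.00876) and Hk2 (-0.40) changed sign in SAP versus control, and Hif1a (0.82), Hk2 (1.23) and Pgk1 (-0.27) in JZL184 versus SAP, where the median became 0.996. Hk2 in JZL184 versus SAP was 0.47 with limma-voom and ranged from -0.78 to 0.69 with 1 library left out.

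No pairing of the rats by replicate number was seen: the deviations of same-numbered libraries from their group means correlated between -0.511 and 0.169. With 3 or 4 libraries per group, these correlations cannot decide whether rats were paired. With the replicate number as a block (control libraries separate), the members called were 0, 0 and 2 and the medians 0.45, 0.53 and 0.82, and 16 related genes were called in JZL184 versus control, or 15 with length offsets and the block. Over all genes, these fits of JZL184 versus control called 1488 and 1327 of 15427. Hk2 in JZL184 versus SAP became 0.0684 with the block and 0.21 with both, and Ldha in SAP versus control became 0.0906 with both. The block ended neither call made by edgeR with merged control libraries, and 4 members were called with separate control libraries and no block.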
